A study of Homo sapiens with 4 samples.

Results

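The 7 genes that encode the FOS and JUN proteins (FOS, FOSB, FOSL1, FOSL2, JUN, JUNB and JUND) were followed in nascent RNA of human HCT116 colon carcinoma cells before and after depletion of KAP1. They were chosen by name, through the Ensembl identifiers of the count table, with earlier results of these data known. All 7 were found among the 19901 genes of the table, and all 7 were among the 12612 genes that reached 50 counts in every library and were tested. The cells were the KAP1_dTAG_CloneD5 line, 1 clone in which KAP1, the protein encoded by TRIM28, carries a tag for degradation by the small molecule dTAG. Both conditions share the tagged KAP1, the clone and growth in medium with serum, and differ in 8 h of either DMSO, the vehicle, or dTAG. Before collection, newly made RNA was labeled for 10 min with 500 μM 4-thiouridine and then purified and sequenced (TT-Seq), from dishes pooled for each library, with 2 libraries per condition. Parental cells without the tag were not analysed here, so that the loss of KAP1 and other actions of the ligand cannot be told apart. The methods of the study name the libraries of a condition biological replicates. The p-values rest on the spread between these libraries, where edgeR draws each gene's spread toward that of all tested genes.

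FOS and JUN proteins are basic leucine zipper transcription factors that bind DNA as the dimer called AP-1. JUN proteins pair with each other or with FOS proteins, whereas FOS proteins need a partner of another family. FOS, FOSB, JUN and JUNB are classical immediate-early genes, which serum and growth factors switch on through MAP kinases within minutes without new protein synthesis, FOSL1 and FOSL2 typically follow later, and JUND is made more steadily. AP-1 is known to drive proliferation, migration and invasion in epithelial tumors, and FOSL1 is often high where ERK signaling is active.

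The promoters of JUN and FOS are shown because the family is known for the elements in them, through which kinases and AP-1 itself act. RefSeq promoters (GRCh38.p14) were matched for 6 members, JUN, JUNB, JUND, FOS, FOSB and FOSL2. The 250 bases upstream of each RefSeq start site were searched on both strands, with motifs that were chosen from textbook knowledge and with the sequences in view. These start sites can differ from the starts of the counted intervals. At JUN (58784047) and FOSL2 (28392858) they lie so far inside that the printed stretches are part of the counted interval. At FOS (75278828) a part of the printed stretch is. Each line gives positions -100 to -21 from the start site, 5′ to 3′ on the strand of the gene, and capitals mark the core TGACGT of the cyclic AMP response element (CRE), on either strand, or the variant AP-1 element TGACATCA of JUN. These stretches lie at chr1:58784068-58784147 (- strand) for JUN, chr19:12791386-12791465 (+) for JUNB, chr19:18281643-18281722 (-) for JUND, chr14:75278728-75278807 (+) for FOS, chr19:45467896-45467975 (+) for FOSB and chr2:28392758-28392837 (+) for FOSL2.
JUN: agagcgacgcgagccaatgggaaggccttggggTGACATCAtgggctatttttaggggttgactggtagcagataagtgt
JUNB: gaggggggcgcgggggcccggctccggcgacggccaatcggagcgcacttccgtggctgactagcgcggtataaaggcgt
JUND: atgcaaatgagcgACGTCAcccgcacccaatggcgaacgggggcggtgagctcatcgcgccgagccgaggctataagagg
FOS: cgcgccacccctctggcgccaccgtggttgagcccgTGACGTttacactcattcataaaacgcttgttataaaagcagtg
FOSB: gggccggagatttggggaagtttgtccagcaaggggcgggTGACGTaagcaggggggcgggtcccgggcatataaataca
FOSL2: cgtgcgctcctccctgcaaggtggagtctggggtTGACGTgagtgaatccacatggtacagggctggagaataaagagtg

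The CRE core TGACGT occurred in 4 of the 6 promoters, FOS, FOSB, FOSL2 and JUND, against 10.4% of the 10051 promoters of tested genes and 7.10% of all 35116. In FOS, FOSB and FOSL2 it began at a similar distance from the start site, at -64, -60 and -66. JUND held it at -87 on the reverse strand and a palindromic CRE, TGACGTCA, at -200, which overlaps a core on each strand and which 2.90% of the promoters of tested genes hold. It is printed in capitals in the stretch chr19:18281803-18281832 (-), positions -210 to -181.
JUND: gccgcccccaTGACGTCAacccacaaggca
JUN and JUNB had no CRE core. JUN held TGACATCA at -67 (1.23% of promoters of tested genes) and TTACCTCA at -186 (0.448%). Both are variant elements known from JUN itself, so that their match was fixed in advance and the shares do not set JUN apart. TTACCTCA is in capitals in chr1:58784218-58784247 (-), positions -200 to -171.
JUN: agggcagcggagcaTTACCTCAtcccgtga
The consensus AP-1 element TGACTCA was found in 0 of the 6 windows (2.50% of promoters of tested genes), as was the CArG box of serum response factor (0.995%). Bases farther upstream than 250 were not searched, so that elements beyond that distance are not covered. TATAAA lay at -33 in FOS, -30 in FOSB and -31 in JUNB (5.37%), and CCAAT at -87 in JUN, -67 in JUNB and -74 in JUND (35.1%). These are matches of letters and no measurement of binding.

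The libraries held 93105627 to 102314741 gene counts, with TMM scaling factors of 0.970 to 1.05, so that depth differed little. The epithelial markers EPCAM, KRT8, KRT18 and CDH1 were all tested, at 12255 to 43667 counts per library, and 0 of the 4 were called in edgeR's quasi-likelihood test. Of markers of other cell types, PTPRC (leukocytes) had 0 to 1 counts, COL1A2 (fibroblasts) was at 0 in every library, where a count of 0 allows up to 3 counts, PECAM1 (endothelium) had 24 to 39, DES (muscle) 15 to 48 and COL1A1 (fibroblasts) 420 to 538. TRIM28 RNA, which does not check the protein that dTAG removes, was 65.7 ± 5.72 CPM (the count as a share of the TMM-scaled library; SD, n = 2) with DMSO and 50.7 ± 3.96 with dTAG, a log2 fold change of -0.37 ± 0.092 (SE; adjusted p = 0.019, edgeR), and it was not called without the first (-0.45) or without the second dTAG library (-0.30), nor with the ERCC factor (-0.19) or the GC and length trend removed (-0.10). Over all tested genes, larger log2 fold changes went with lower GC content (Spearman's rho -0.56) and with greater gene length (rho 0.42), as a description across genes that share the same 4 libraries. All 7 members were shorter than the median tested gene of 36.2 kb and richer in GC than the median of 44.9%. In bulk samples, fewer cells that transcribe a gene and less new RNA per cell cannot be told apart.

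With dTAG, JUN rose 1.58-fold and FOSL1 1.45-fold. Of the 7 genes, 2 were called higher in edgeR's quasi-likelihood test (adjusted p under 0.05 over all tested genes), against 3.44% of all tested genes, and 0 were called lower, against 3.66%. In either direction 7.1% of tested genes were called. With a change of at least 1.5-fold also asked for, JUN was the only member called higher, against 0.507% of tested genes. The dTAG libraries lay above both DMSO libraries for 4 members, JUN, FOSL1, FOSB and FOSL2, where 28.1% of tested genes did so, and below both for 0 members, where 30.7% did. The median log2 fold change of the members was 0.31, beside -0.015 for all tested genes, of which the 5th and 95th percentiles were -0.45 and 0.30.

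**Figure D1:**
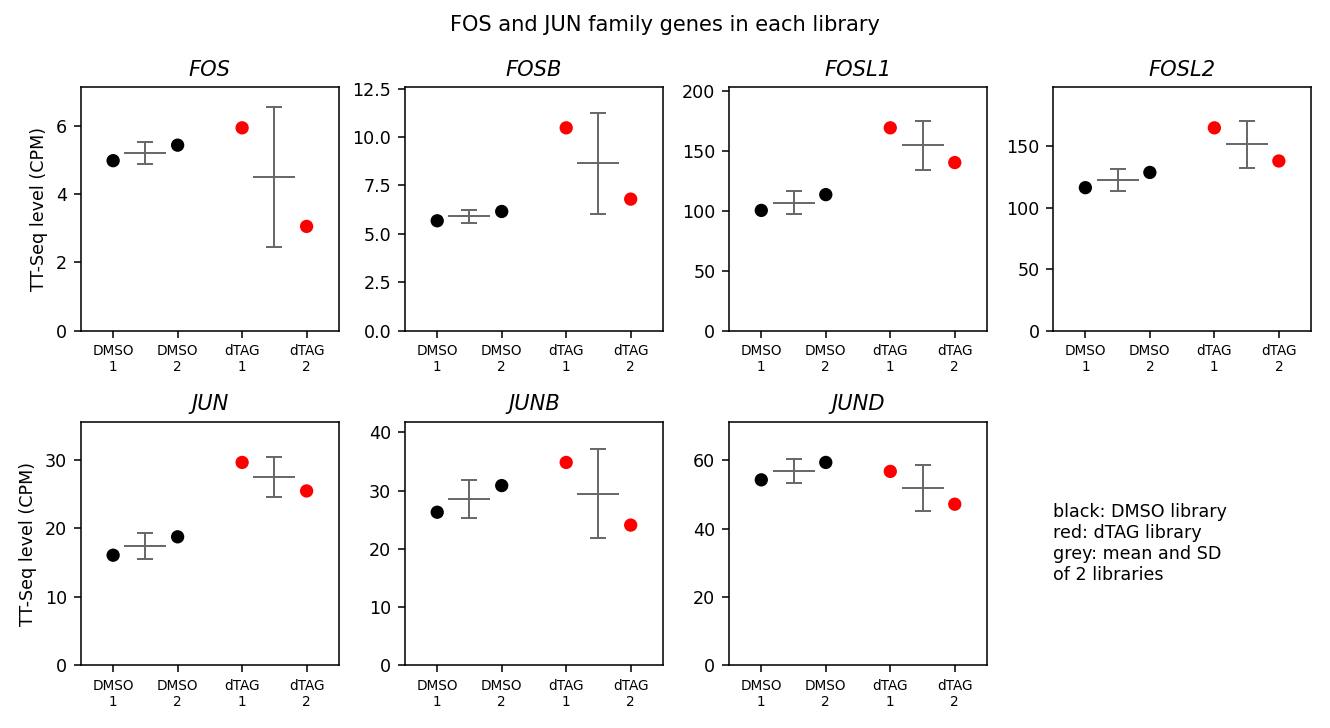
Nascent RNA of the 7 genes in each library, in CPM on a linear axis that starts at 0 in each panel, with points for the 2 DMSO and the 2 dTAG libraries and grey lines for the mean and SD of each condition. JUN, FOSL1, FOSB and FOSL2 have both dTAG points above both DMSO points, while the points of FOS, JUNB and JUND overlap.

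JUN, the founding partner of AP-1 (ENSG00000177606.6, chr1:58780787-58784327, - strand, hg38, a single-exon gene), had the largest change of the family. It was at 16.1 and 18.8 CPM in the DMSO libraries and at 29.6 and 25.5 CPM in the dTAG libraries, from 1593, 1873, 2969 and 2299 counts. Both dTAG values exceeded both DMSO values, and the gap between the groups was wider than that within either. The mean went from 17.4 ± 1.90 to 27.6 ± 2.95 CPM (SD, n = 2), a 1.58-fold rise, with a log2 fold change of 0.66 ± 0.12 (SE; 95% interval 0.42 to 0.90; adjusted p = 0.0015, edgeR quasi-likelihood). By that change JUN ranked 52 among the 12612 tested genes.

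The other JUN genes did not pass the test. JUNB, which is induced by growth factors and can counter JUN in cell division (ENSG00000171223.5, chr19:12791495-12793315, + strand, single-exon), was at 26.3 and 30.9 CPM with DMSO and at 34.8 and 24.1 CPM with dTAG. The dTAG libraries stood on either side of both DMSO libraries. Its log2 fold change was 0.04 ± 0.13 (SE; 95% interval -0.23 to 0.32; edgeR adjusted p = 0.85). JUND, the most steadily made member (ENSG00000130522.5, chr19:18279759-18281622, - strand, single-exon), was at 54.3 and 59.4 CPM with DMSO and at 56.8 and 47.2 CPM with dTAG. The groups overlapped, and the log2 fold change was -0.13 ± 0.097 (SE; 95% interval -0.33 to 0.073; edgeR adjusted p = 0.40). These intervals leave room for changes in either direction in both genes. JUNB and JUND had signs that turned under other scalings, JUNB to -0.03 with upper-quartile scaling and JUND to 0.29 after removal of the trend on GC and length.

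Among the FOS genes, FOSL1, which encodes FRA-1 and lacks the strong activation domain of FOS (ENSG00000175592.8, chr11:65892048-65900573, - strand, 4 exons), rose with dTAG. It was at 100.2 and 113 CPM in the DMSO libraries and at 169 and 140.1 CPM in the dTAG libraries, from 9923, 11307, 16924 and 12637 counts. Again both dTAG values were above both DMSO values. The mean rose 1.45-fold, from 107 ± 9.29 to 155 ± 20.5 CPM (SD, n = 2), with a log2 fold change of 0.53 ± 0.097 (SE; 95% interval 0.33 to 0.73; adjusted p = 0.0020, edgeR quasi-likelihood). FOSL1 ranked 111 of all tested genes by that change.

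FOSB and FOSL2 were higher in both dTAG libraries without passing the threshold. FOSB (ENSG00000125740.13, chr19:45467994-45475179, + strand, 4 exons), whose product is known for long-lived splice forms in brain, was at 5.67 and 6.15 CPM with DMSO and at 10.5 and 6.79 CPM with dTAG. The first dTAG library stood far above the other 3. Its log2 fold change, 0.55 ± 0.18 (SE; 95% interval 0.18 to 0.92), was close to that of FOSL1 with a wider error, and the edgeR adjusted p was 0.064. FOSL2, which encodes FRA-2 and is the longest gene of the family (ENSG00000075426.11, chr2:28392447-28417312, + strand, 24.9 kb, 4 exons), was at 116 and 128 CPM with DMSO and at 165 and 138 CPM with dTAG. Its groups did not overlap, and its log2 fold change was 0.31 ± 0.095 (SE; 95% interval 0.11 to 0.50; edgeR adjusted p = 0.053). At an unadjusted p under 0.05, 4 of the 7 members, JUN, FOSL1, FOSB and FOSL2, would be counted, as would 3355 of the 12612 tested genes.

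FOS, the prototype of the immediate-early genes (ENSG00000170345.9, chr14:75278773-75282230, + strand, 4 exons), was at 4.99 and 5.44 CPM in the DMSO libraries and at 5.95 and 3.06 CPM in the dTAG libraries, from 494, 543, 596 and 276 counts. The dTAG libraries were the highest and the lowest of the 4. With a log2 fold change of -0.21 ± 0.22 (SE; 95% interval -0.67 to 0.25; edgeR adjusted p = 0.57), FOS had the widest error of the family, against a median SE of 0.10 over the tested genes. Its sign turned to 0.19 without the second dTAG library and to 0.16 with a factor estimated from the ERCC spike-in RNAs as a covariate.

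**Figure D2:**
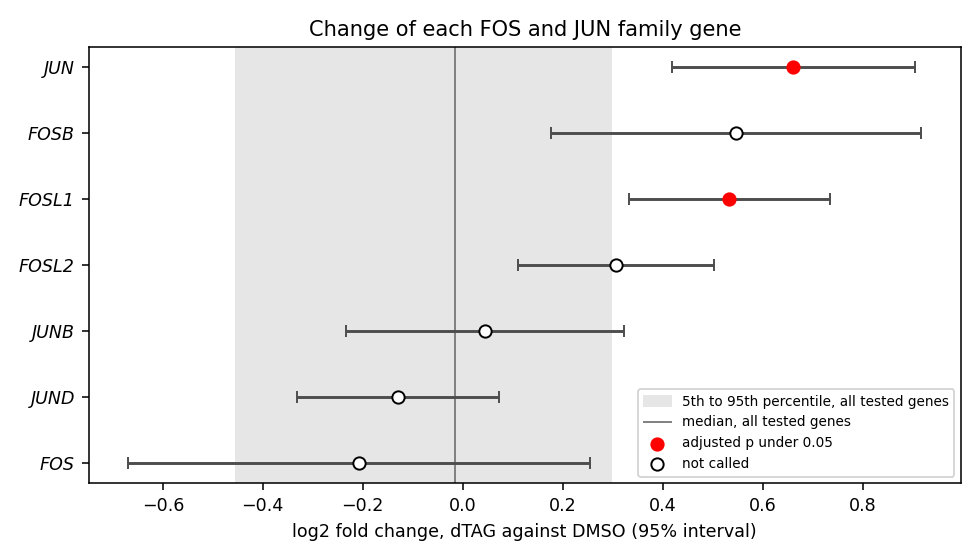
Log2 fold change of each gene, dTAG over DMSO, with its 95% interval from the edgeR fit, over a grey band from the 5th to the 95th percentile of all tested genes and a line at their median of -0.015. JUN at 0.66 and FOSL1 at 0.53 are in red as called, and the interval of FOS runs from -0.67 to 0.25.

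The dTAG libraries differed from each other in every member. The first was above the second in 7 of 7 members, where 50.9% of tested genes showed that order. The gap was 0.96 on the log2 scale for FOS, 0.62 for FOSB and 0.53 for JUNB, all beyond the 99th percentile of tested genes at 0.46. It was smaller for FOSL1 (0.27), JUND (0.27), FOSL2 (0.26) and JUN (0.22), near or below the 95th percentile of 0.27. JUN lay 0.77 and 0.55 above the DMSO mean on the log2 scale in the dTAG libraries, while FOSB lay 0.82 above in one and 0.20 above in the other. The second DMSO library was likewise above the first in 7 of 7 members, as in 51.4% of tested genes. Without the first dTAG library, 0 of 7 members were called, with log2 fold changes of 0.55 for JUN (edgeR adjusted p = 0.12), 0.40 for FOSL1 (0.29), 0.20 for FOSB and 0.18 for FOSL2. Without the second, JUN and FOSL1 were called at 0.77 and 0.66. The part of a difference between the dTAG preparations in these values was not tested.

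Levels of different genes were compared as CPM per kb of the gene interval. With DMSO, JUND led with 30.5 ± 1.93 CPM per kb (SD, n = 2), at the 98.8th percentile of tested genes. JUNB followed at 15.7 ± 1.78, FOSL1 at 12.5 ± 1.09, JUN at 4.92 ± 0.537, FOSL2 at 4.92 ± 0.352, FOS at 1.51 ± 0.0930 and FOSB at 0.823 ± 0.0472, beside a median of 1.06 over tested genes. JUND stood clear of the rest, JUN and FOSL2 had levels within their spread, and all other neighbours in this order were apart in both DMSO libraries. The most inducible genes by reputation, FOS and FOSB, were thus the 2 lowest in these cells in serum. With dTAG, FOSL1 reached 18.1 ± 2.40 CPM per kb. It was above JUNB in both dTAG libraries, at 19.8 against 19.1 and at 16.4 against 13.2 CPM per kb, and below it in both DMSO libraries, at 11.8 against 14.4 and 13.3 against 17.0. Also with dTAG, FOS and FOSB, at 1.72 and 1.46 CPM per kb in the first library and 0.885 and 0.945 in the second, no longer kept 1 order. The gene interval and its counts include introns. The same counts divided by kb of exon put FOSL1 first with DMSO, at 56.6 CPM. JUND followed at 29.5, FOSL2 at 17.1 and JUNB at 15.6 CPM. That division raises genes with introns and gives no level over exons.

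**Figure D3:**
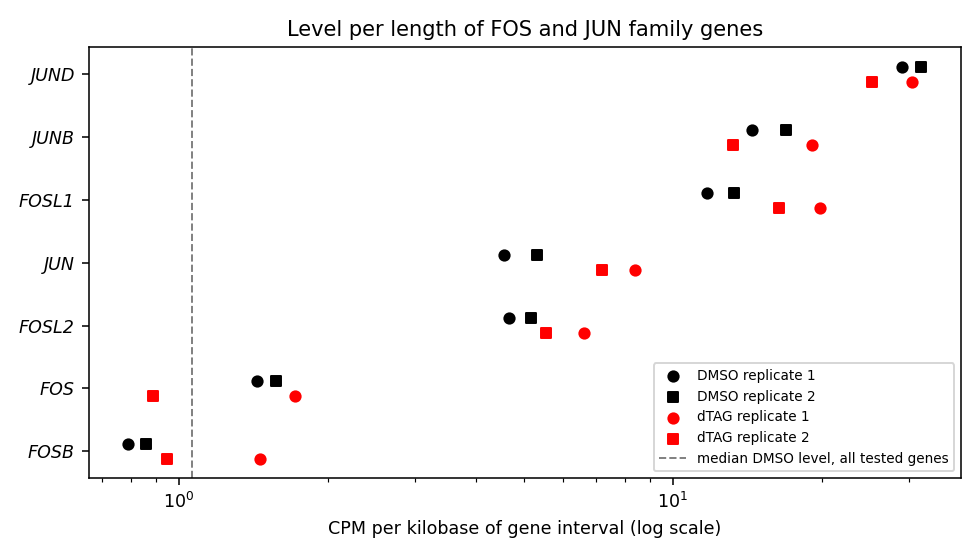
Level of each gene in CPM per kb of gene interval on a log axis, in the 2 DMSO (black) and the 2 dTAG (red) libraries, with circles for the first and squares for the second and a dashed line at the median DMSO level of tested genes, 1.06. JUND lies highest, at 30.5 with DMSO, and FOSB lowest, at 0.823, and FOSL1 passes JUNB in both dTAG libraries.

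Ratios within a library do not depend on the scaling between libraries, and 9 pairs were computed. They still carry the trend on GC content and length, which differed between members. With dTAG against DMSO, it was -0.42 at JUND, -0.24 at JUN and -0.22 at FOSL1 on the log2 scale. Its part in the ratios was not tested. JUN relative to JUND, the pair of JUN genes with the widest contrast, had log2 ratios in CPM per kb of -2.68 and -2.59 with DMSO and of -1.86 and -1.81 with dTAG, a difference of 0.80. The replicates of each condition lay close together. JUN relative to FOSL1 moved little, from -1.37 and -1.33 to -1.24 and -1.19, a difference of 0.13, and FOSL1 relative to JUND went from -1.31 and -1.26 to -0.62 and -0.62, a difference of 0.66. FOSL1 relative to FOSL2 rose from 1.33 and 1.36 to 1.58 and 1.57. FOSB relative to FOS went from -0.87 and -0.88 to -0.24 and 0.096, a shift of the same direction in both libraries although each of these genes alone varied. JUNB relative to JUND overlapped between the groups. An exact two-sided permutation test of 2 libraries against 2 cannot give a p under 0.333, and no other test of the ratios was made.

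As shares of the JUN family in CPM per kb, JUN made up 9.44% and 9.80% with DMSO and 14.4% and 15.7% with dTAG, while JUND went from 60.5% and 58.9% to 52.5% and 55.3% and JUNB was between 28.9% and 33.0%. In the FOS family, FOSL1 made up 63.0% and 63.6% with DMSO and 66.9% and 69.0% with dTAG. FOS went from 7.73% and 7.53% to 5.81% and 3.72%. FOSL2 went from 25.0% and 24.7% to 22.4% and 23.3%, although its CPM was higher in both dTAG libraries. In both dTAG libraries, JUN and FOSL1 thus held larger shares of their families than with DMSO, and JUND, FOS and FOSL2 smaller ones. A share also falls where another member rises, so that a smaller share is not a lower level. The trend on GC content and length was not removed from the shares.

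How many members were called depended on the treatment of the GC content and of the spike-ins. At the GC content and length of the members, the trend over all tested genes lay lower with dTAG, between -0.42 on the log2 scale at that of JUND and -0.13 at that of FOSL2. With each library's trend on both removed, 6 of the 7 members were called higher, all but FOS, against 10.6% of tested genes. Then the log2 fold changes were 0.90 for JUN, 0.79 for FOSB, 0.75 for FOSL1, 0.43 for FOSL2, 0.40 for JUNB and 0.29 for JUND. With the ERCC factor as a covariate, 5 members were called higher, all but FOS and JUND, against 6.32% of tested genes. DESeq2 called 4, JUN, FOSL1, FOSB and FOSL2, against 5.48%. The ERCC totals differed within each condition, at 14798 and 25165 counts with DMSO and 13870 and 9551 with dTAG. With the ERCC totals as library sizes, 0 genes of all tested were called by edgeR (229 had an unadjusted p under 0.05) and the median of all tested genes went from -0.015 to 0.63. JUN at 1.32 and FOSL1 at 1.18 were then above that median, and FOS at 0.39 and JUND at 0.51 below it. JUN and FOSL1 were called in 14 of 16 alternative settings, the exceptions being the ERCC totals and the fit without the first dTAG library, and FOSB and FOSL2 in 9 of 16. Some of these settings leave 1 library in a condition. Another, a replicate block with the library numbers crossed, was chosen after seeing the data and called 3190 of the 12612 tested genes. Whether GC content and length account for the low values of JUNB and JUND was not tested.

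**Figure D4:**
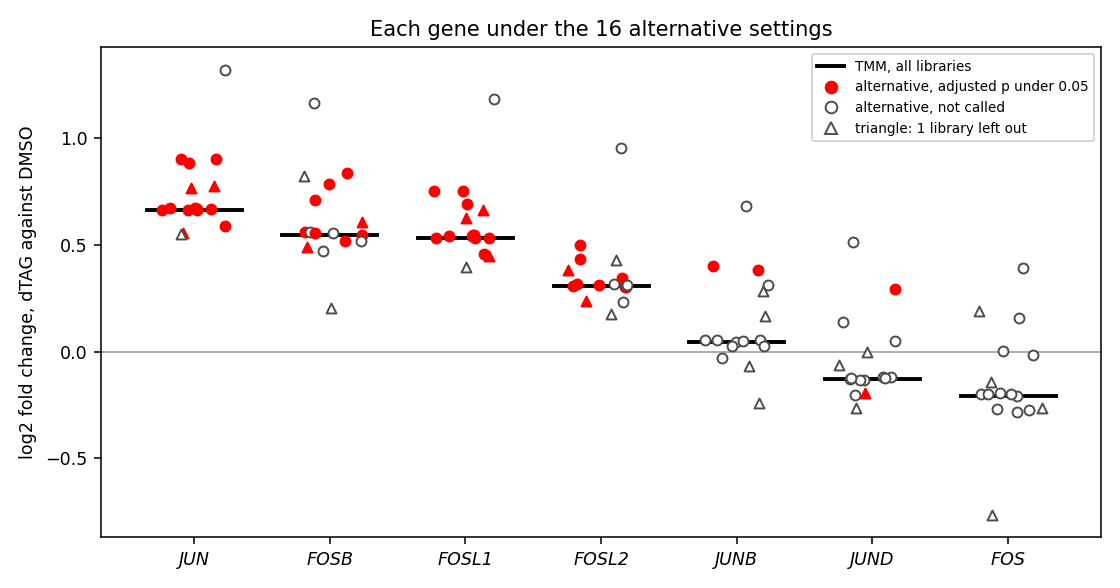
Log2 fold change of each gene, dTAG over DMSO, under the edgeR fit (black bars) and each of 16 alternative settings (points, red where called, triangles where 1 library is left out). JUN, FOSL1, FOSB and FOSL2 stay above 0 in every setting shown, and FOS, JUNB and JUND fall on both sides of 0.

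Other genes of the pathway were taken from lists of textbook roles, described by counts beside 3.44% of tested genes called higher and 3.66% lower. Of 7 dimer partners from the ATF, BATF and JDP groups, 6 were tested, and ATF3 and JDP2 rose. ATF3, a stress-induced partner of JUN proteins, was at 102 and 117 CPM with DMSO and at 182 and 174 CPM with dTAG, and its log2 fold change was 0.70 ± 0.090 (SE; edgeR adjusted p = 5.5e-05), beside 0.66 for JUN. JDP2, which binds JUN and can repress AP-1 sites, rose by 0.37 (adjusted p = 0.018, edgeR). BATF was under the minimum with 0 to 3 counts, and BATF2 and BATF3 were at -0.12 and -0.047. Of 7 MAF genes, relatives that can also dimerize with FOS or JUN proteins, 5 were tested, and MAFF, a small MAF protein, rose, from 16.5 and 21.9 CPM to 33.5 and 30.8 CPM (log2 fold change 0.74 ± 0.12, SE; edgeR adjusted p = 0.0008). The large MAFA was at -0.70 with few counts and was not called (edgeR adjusted p = 0.11).

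Genes upstream of AP-1 were called in both directions. The list of 13 genes held MAP kinases, MAP kinase kinases and RSK kinases, all tested, with a median of 0.0069. On the log2 scale, RPS6KA3 rose by 0.37 (edgeR adjusted p = 0.024) and RPS6KA1 fell by 0.37 (adjusted p = 0.039). With the ERCC factor neither was called, RPS6KA3 at 0.13 and RPS6KA1 at -0.037, and RPS6KA1 was at -0.17 and not called without the second DMSO library. MAPK8, which encodes the kinase JNK1 that phosphorylates JUN, was at 0.31 and not called (edgeR adjusted p = 0.056). The other JNK genes of the list were not called either, MAPK9 at 0.0069 and MAPK10 at -0.40 (edgeR adjusted p = 0.15). MAPK7, the lowest of the list, was at -0.42 and not called (edgeR adjusted p = 0.13). Of 10 transcription factors known to act at the FOS and JUN promoters, ELK3, a ternary complex factor of the FOS promoter, rose by 0.37 (edgeR adjusted p = 0.011) and MEF2C fell by 0.33 (adjusted p = 0.037). SRF, at 0.15, and 7 other factors of that list were not called. Of 11 genes for turnover of FOS and JUN mRNA or protein, 0 were called higher and 2 lower. ZFP36L1, which binds AU-rich elements and promotes decay of short-lived mRNAs, fell by 0.40 (edgeR adjusted p = 0.046), from 1800 and 1947 CPM to 1474 and 1373 CPM. Its paralog ZFP36L2 fell by 0.31 (adjusted p = 0.036) but was at -0.083 and not called with the GC and length trend removed, while the ubiquitin ligase gene ITCH was at 0.32 (adjusted p = 0.051). Counts of nascent RNA do not measure decay. Without the first or without the second dTAG library, 2 of the list genes were called, ATF3 and MAFF.

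Of 19 textbook targets of AP-1, 10 were tested and 2 rose. PLAUR, the urokinase receptor, went from 41.5 and 45.4 CPM to 60.6 and 56.4 CPM (log2 fold change 0.43; edgeR adjusted p = 0.0068), and EZR, a linker of membrane and actin, from 1897 and 1861 to 2547 and 2475 CPM (0.42; adjusted p = 0.041). Of the rest, TIMP1 and PLAU were lowest at -0.23 and -0.21 and not called. The other 9 targets, among them the collagenase gene MMP1, were under the minimum with 0 to 33 counts per library, so that changes in them were not detectable at this depth.

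**Figure D5:**
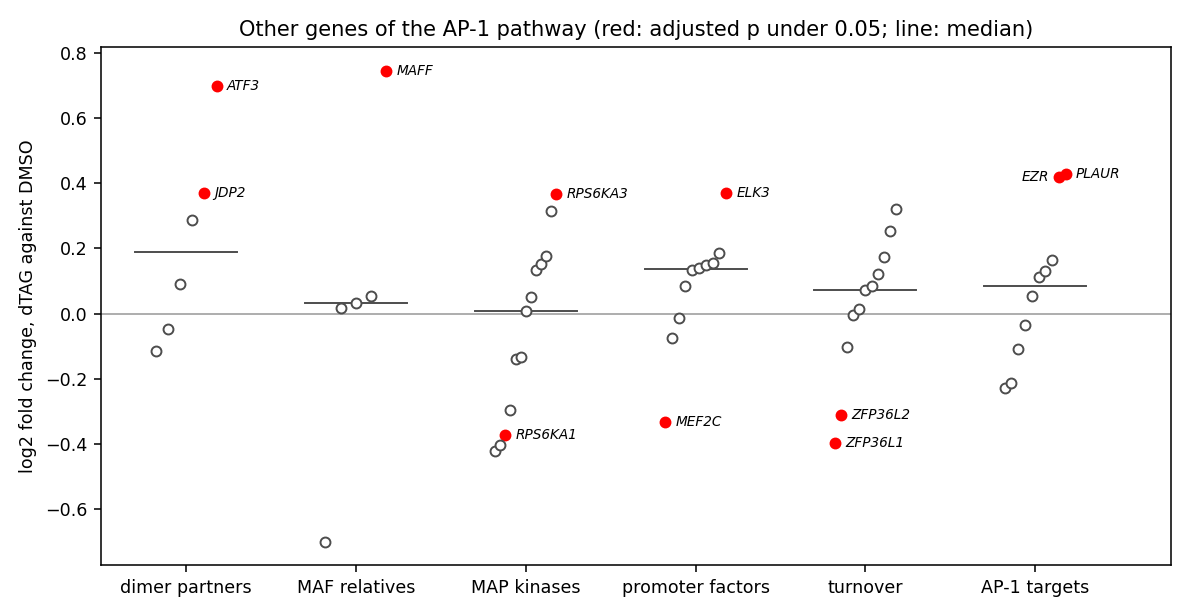
Log2 fold change, dTAG over DMSO, of the tested genes of each pathway list, with called genes in red and named and a line for each list's median. The rises of ATF3 (0.70) and MAFF (0.74) are the highest points, and the medians of all 6 lists lie between 0.0069 and 0.19.

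Within 50 kb of the members lay 28 counted genes, of which 17 were tested, 0 were called higher and 2 lower, beside 3.44% and 3.66% of all tested genes, with a median log2 fold change of -0.13. CCDC85B, only 412 bases from FOSL1, fell by 0.46 on the log2 scale (edgeR adjusted p = 0.034), and PPM1N, 13.6 kb from FOSB, fell by 0.95 (adjusted p = 0.041). Neither was called without the first or without the second dTAG library, and with the GC and length trend removed CCDC85B was at -0.054. PPM1N was at -0.76 and not called with that trend removed. It had few counts, 108 and 115 with DMSO and 52 and 58 with dTAG, near the minimum of 50. ERCC1, at 0.093, was the only one of the 17 tested neighbours above 0. JUN and FOS had no counted gene within that distance. FOSB lies wholly inside the interval of ERCC1, and JUNB inside that of HOOK2 (-0.10), both on the opposite strand. Of 436 counted genes inside a gene of the same strand, 436 were at 0 in every library. Of 608 inside only genes of the opposite strand 121 were, so that the counting took the strand into account. Whether some reads from the enclosing gene still entered the counts of FOSB and JUNB was not tested.

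For each member, the 3 tested genes with the nearest profile over the 4 libraries were found by the Euclidean distance of log2 CPM centred on each gene's mean. FOSL1 was nearest to MGLL and C1orf116 (both at a distance of 0.059) and to NR4A1 (0.074), an immediate-early nuclear receptor. JUN shared C1orf116 (0.085) and MGLL (0.10) with it, followed by ANO2 (0.11). FOSL2 was nearest to IFFO2 (0.018), its possible partner gene ATF7 (0.032) and TNFAIP1 (0.047), and FOSB to DUSP5 (0.16), a phosphatase gene of ERK, before DOCK2 (0.22) and TNS4 (0.25). ATF7 had few counts, 69 to 97 per library, and was not called (log2 fold change 0.29 ± 0.27, SE, edgeR adjusted p = 0.51). FOS was nearest to RABAC1 (0.13), GPD1 (0.14) and NPM2 (0.17), JUNB to HTR6 (0.037), TMEM158 (0.11) and EOLA2 (0.12), and JUND to RABL2A (0.023), ZNF514 (0.024) and CHST7 (0.030). With 4 libraries, such likeness is a description of these libraries.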

How the data were processed

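TT-Seq was done on 4 libraries. Per the methods and the submitters' processing notes, reads were trimmed (Trim Galore 0.6.4), aligned to hg38 (STAR) and assigned by featureCounts (Subread 1.6.3) to whole genes that code for protein, introns included, and to ERCC spike-ins. The authors deposited these counts without normalization, for 19901 genes and 92 ERCC RNAs. How overlapping genes and strands were treated is not given in the sources used here and was read from the counts. Symbols came from the GENCODE 44 annotation for 19802 genes. Intervals are printed as counted, and many start 1 base before the GENCODE start.

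Libraries were grouped by their labels, and 0 columns of values were left out. The fit was made with edgeR 4.0.16 under R 4.3.3 (TMM factors, quasi-likelihood F test, two-sided), on genes that reached 50 counts in each of the 4 libraries, adjusted by Benjamini-Hochberg over all 12612 of them, with a threshold of 0.05. CPM are on TMM-scaled library sizes, SE is the log2 fold change over the square root of F, and each SD is over 2 libraries. Gene counts were 93105627 to 102314741 per library, with 2 replicates per condition. The parts of depth and of the number of replicates in the precision were not told apart. The study used spike-in normalization with RUVSeq. Since its settings are not given in the sources used here, TMM was used and spike-in scalings were alternatives, together with DESeq2 1.42.0, upper-quartile and RLE scaling, removal of length or GC trends by lowess (span 0.3), a likelihood ratio test, other count minimums, a replicate block and leaving out each library. The fits were also run on simulated counts, drawn from the means and spreads of the fit itself, and the outcome is not given here.

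The members and lists were chosen with earlier results of these data known. Named were all members, TRIM28, called list genes and the extremes of each list, neighbours within 50 kb and the 3 nearest profiles, of which a part is given.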

Additional observations from a re-analysis of the deposited data

How the results depend on the processing

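With 2 replicates per condition, each spread rests on few libraries. FOS and FOSB, the members with the fewest counts, had the widest errors (SE 0.22 and 0.18). What limits the precision was not tested. Without the first dTAG library, the log2 fold change of JUN went from 0.66 to 0.55 and that of FOSL1 from 0.53 to 0.40. The 895 genes called by edgeR (434 higher and 461 lower), the 2 members and the 11 genes of the pathway lists were compared with 16 alternative settings, and the causes of the changes were not tested. Members called were 4 with DESeq2, 0 with ERCC totals, 5 with the ERCC factor, 4 with the length trend removed, 6 with the GC and length trend removed, 4 with the likelihood ratio test, 4 with no count filter and 4 with the crossed replicate block, and 0 to 5 with 1 library left out. Genes called in all were 0 with ERCC totals, 2284 with the GC and length trend removed, 1593 with the likelihood ratio test, 1417 with no count filter and 69 to 5491 with 1 library left out, where the condition left with 1 library is assumed to vary like the other. The count was 1273 with DESeq2 and 1322 with the ERCC factor. Upper-quartile scaling gave 255 higher and 869 lower. List genes called were 0 with ERCC totals, 19 with the GC and length trend removed and 2 to 31 with 1 library left out. With the same counts, introns included, divided by kb of exon, DMSO levels moved to 1.64 for FOS, 1.07 for FOSB, 56.6 for FOSL1 and 17.1 for FOSL2. The log2 fold change of FOS reversed to 0.39 (ERCC totals), 0.16 (ERCC factor) and 0.0037 (length trend removed), and was -0.77 to 0.19 with 1 library left out. JUNB reversed to -0.03 (upper-quartile) and was -0.24 to 0.29 with 1 library left out, with -0.066 without the first DMSO library. JUND reversed to 0.51 (ERCC totals), 0.052 (ERCC factor), 0.14 (length trend removed) and 0.29 (GC and length trend removed, adjusted p = 0.0022), and was called lower, at -0.19, without the first DMSO library (adjusted p = 0.033). ERCC totals also turned TRIM28 to 0.28, RPS6KA1 to 0.32, MEF2C to 0.29, ZFP36L1 to 0.26, ZFP36L2 to 0.35 and CCDC85B to 0.19.

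The labels of same-numbered libraries give only a shared number and do not say whether these libraries were handled together. Their deviations from the condition means had a correlation of -0.25 over 12612 genes, which cannot decide this. With the replicate block, 340 genes, 2 members and 3 list genes were called, JUN at an adjusted p of 0.0009 and FOSL1 at 0.0020. A block with the numbers crossed, chosen after seeing the data, called 3190 genes, 4 members and 19 list genes.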

Other observations

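Genes nested in another counted gene were at 0 beside JUNB and JUND. PRDX2, which encodes an abundant antioxidant enzyme and lies beside JUNB, inside HOOK2 and on its strand, was at 0 counts in all 4 libraries. Beside JUND, PDE4C and ENSG00000284797, both inside ENSG00000285188 on the same strand, were at 0 in all 4 libraries too. These genes were named after their values were seen. Of the genes that lie wholly inside a counted gene on the same strand, 436 of 436 were at 0 in every library, against 12.3% of all 19901 genes and 19.9% of the 608 genes inside genes of the opposite strand only. A count of 0 in such a gene is no measure of its transcription. None of the 7 FOS and JUN genes lies inside a gene of its own strand, and their counts were 276 to 16924 per library.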
